A study of Mus musculus with 3 samples.

Results

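Processed pseudogenes are the copies of messenger RNAs that lie scattered over the mouse genome, and the processed pseudogenes of autosomes were examined here in the exome DNA of 3 animals. Members were the genes on chromosomes 1 to 19 that the GRCm38 annotation classes as processed pseudogene and that had at least 50 allelic counts in all 3 libraries. They numbered 1181 of 2555 autosomal processed pseudogenes listed, and of 19026 autosomal genes of any class with the same minimum. The comparison set was formed by the 16190 protein-coding genes, of 18908 listed, that reached this minimum.

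The study asked how stable allele-specific transcription is in blood cells that descend from a single hematopoietic stem cell (HSC), and exome sequencing served to find genes whose allelic imbalance could come from loss of heterozygosity (LOH) in DNA. All cells are F1 of C57BL/6 (B6) mothers and CAST/EiJ (CAST) fathers, and all animals are female, so that a read over a strain SNP can be given to the maternal B6 or the paternal CAST chromosome. HSCs of donors under 5 weeks old were injected into sublethally irradiated F1 recipients of 5 to 16 weeks, which differ from the donors in the Ly5 marker of their B6 chromosome, and cells were collected 12 weeks later. Irradiated recipients can keep blood cells of their own, and these carry a B6 and a CAST chromosome as well. E6.2 is a polyclonal animal that received 50 HSCs of donor animal 6, and its library was made from 58000 B220+IgM+ B cells, for which the labels name the spleen and the methods the bone marrow. E6.43 is a monoclonal animal that received 1 HSC of the same donor, and its library was made from 250000 CD4+CD8- thymic T cells. E15.10 is a monoclonal animal that received 1 HSC of donor animal 15, and its library was made from 177000 CD4+CD8- thymic T cells. With 1 library per animal there was no replicate, clonality cannot be told apart from cell type, and every difference between libraries is a difference between these libraries only. The labelled cell types could not be checked against expressed markers, since DNA was sequenced.

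A processed pseudogene arises when the reverse transcriptase of a LINE element copies a spliced messenger RNA and inserts the DNA copy elsewhere in the genome. Such copies lack introns, usually lack a promoter of their own, and come most often from abundant transcripts of the germ line, such as those of ribosomal proteins and of the glycolytic enzyme Gapdh. Since copies of 1 parent resemble the parent and each other, short reads and capture probes can be hard to give to a single copy, and a base that differs between strains can equal the base of another copy. The allelic imbalance value (AI) used below is the share of B6 counts among the B6 and CAST counts of a gene, so that 1 means B6 counts alone and 0 means CAST counts alone. Values are given in the order E6.2, E6.43 and E15.10 throughout. In the study a gene with AI under 0.25 or over 0.75 in DNA is set aside as possible LOH, and these limits are called the LOH range here.

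The total allelic counts of the libraries were 19471576, 13036005 and 10863972, of which the members took 4.54%, 4.45% and 3.89%. A member had a median of 452, 292 and 194 counts, with ranges of 61 to 6919, 52 to 5125 and 50 to 3782, whereas a protein-coding gene had medians of 684, 464 and 366. Counts of a gene are sums over its SNPs, and a read pair that spans several SNPs is counted at each. Tests therefore used the counts at SNPs at least 300 bp apart, of which a member had medians of 144, 96 and 63. Intervals were centered on AI from the summed counts, with the number of spaced counts as their n, and AI at the spaced SNPs can lie outside them. The 1374 listed processed pseudogenes left out included 583 with 0 counts in at least 1 library. Just inside the minimum, 42 members with a lowest count of 50 to 54 had an SD of AI of 0.170, 0.168 and 0.208, and just outside it 39 pseudogenes with a lowest count of 45 to 49 had 0.160, 0.170 and 0.194.

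Of the 1179 members found on the same chromosome in the annotation, 1121 have 1 exon, and the median exon length was 597 bp, against 3900 bp for the protein-coding genes. A best matching protein-coding transcript, called the parent, was found for 1165 members. These parents numbered 543, of which 384 had 1 member. The median identity of a member to its parent was 94.9%, with quartiles of 91.4% and 97.4%. Another copy of at least 98% identity elsewhere in the genome was found for 540 members, and for 164 of these the copy was identical over the aligned stretch. The identity of a copy is that of its best aligned stretch of at least 100 bases, which need not span the whole member. Members held 12.7 strain SNPs per kb of exon, against 4.41 in protein-coding genes. A protein-coding gene hosts 407 of the members within its bounds, and in 44 an exon of another gene overlaps.

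The sequences of 5 members, each followed by the coding stretch of its parent, show what a read has to tell apart. They are windows of 120 bases of GRCm38, read 5′ to 3′ on the member's own strand, and capitals mark the SNP positions counted in the files and the bases that align to them in the parent. Only the B6 base is shown, since the files hold no letters of the CAST allele.

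Gm13835, on the minus strand of chromosome 6 (chr6:31142402-31142521), is shown for its near absence of B6 counts. Its parent Psma3 encodes an alpha subunit of the proteasome and lies on chromosome 12 (70974621 to 70996347). The window aligned to coding bases 1 to 120 with 0 unequal bases, so that a B6 read of 1 locus cannot be told from a B6 read of the other here.
Gm13835: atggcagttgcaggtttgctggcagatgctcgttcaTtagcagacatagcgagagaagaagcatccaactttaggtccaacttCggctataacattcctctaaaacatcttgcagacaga
Psma3: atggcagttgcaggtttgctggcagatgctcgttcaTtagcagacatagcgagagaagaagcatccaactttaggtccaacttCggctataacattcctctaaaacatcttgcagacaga

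Gm14058, on the minus strand of chromosome 2 (chr2:122215124-122215243), is shown because all of its counts were B6. Its parent Dppa4 encodes a chromatin-bound protein of pluripotent cells and lies on chromosome 16. The window aligned to coding bases 112 to 231 with 3 unequal bases and holds 12 of the 18 SNPs of the member.
Gm14058: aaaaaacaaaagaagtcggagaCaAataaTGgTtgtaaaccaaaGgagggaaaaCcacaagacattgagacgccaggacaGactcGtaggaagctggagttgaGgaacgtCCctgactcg
Dppa4: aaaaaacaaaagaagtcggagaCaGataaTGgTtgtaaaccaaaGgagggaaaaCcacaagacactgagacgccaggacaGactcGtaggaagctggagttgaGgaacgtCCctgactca

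Rps12-ps10 lies 4639 bases from Gm14058 on the plus strand (chr2:122219993-122220112) and is shown because it also had B6 counts alone. Its best match was Rps12-ps3 on chromosome 19, which the annotation classes as protein-coding in spite of its name, and Rps12 itself encodes a protein of the small ribosomal subunit. The window aligned to bases 1 to 120 with 2 unequal bases.
Rps12-ps10: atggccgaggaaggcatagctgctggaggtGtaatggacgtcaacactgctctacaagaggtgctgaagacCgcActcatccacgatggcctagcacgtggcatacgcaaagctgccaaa
Rps12-ps3: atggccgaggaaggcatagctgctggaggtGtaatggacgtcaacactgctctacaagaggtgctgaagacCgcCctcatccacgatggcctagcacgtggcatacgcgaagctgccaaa

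Gm8055, on the plus strand of chromosome 10 (chr10:40012045-40012164), is shown as the member with the most counts. Its parent Gapdh encodes glyceraldehyde-3-phosphate dehydrogenase. The window aligned to coding bases 174 to 293 with 9 unequal bases, and at 7 of its 9 SNP positions the B6 base differs from the parent.
Gm8055: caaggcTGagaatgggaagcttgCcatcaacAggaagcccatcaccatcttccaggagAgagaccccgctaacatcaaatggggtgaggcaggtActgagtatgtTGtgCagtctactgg
Gapdh: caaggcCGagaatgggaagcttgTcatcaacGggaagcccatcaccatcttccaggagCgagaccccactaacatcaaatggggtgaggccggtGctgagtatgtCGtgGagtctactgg

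Gm7418, on the plus strand of chromosome 8 (chr8:94835861-94835980), is shown as the best covered copy of a ribosomal protein gene. Its parent Rpl7a encodes a protein of the large ribosomal subunit. The window aligned to coding bases 145 to 264 with 9 unequal bases.
Gm7418: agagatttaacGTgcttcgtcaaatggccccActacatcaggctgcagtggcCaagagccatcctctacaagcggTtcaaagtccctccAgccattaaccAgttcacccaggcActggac
Rpl7a: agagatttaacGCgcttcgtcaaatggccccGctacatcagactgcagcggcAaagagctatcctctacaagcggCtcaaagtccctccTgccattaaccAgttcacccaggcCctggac

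These windows cover identities to the parent from 92.5% in Gm8055 and Gm7418 to 100% in Gm13835, and the AI of their SNPs ranged as widely. In the window of Gm13835 the SNPs had 2 of 142, 4 of 117 and 3 of 127 counts from B6. In that of Gm8055 the 9 SNPs had AI from 0.394 to 0.485 in E6.2, from 0.440 to 0.484 in E6.43 and from 0.509 to 0.584 in E15.10. In that of Gm7418 the 8 SNPs had AI from 0.506 to 0.562, from 0.337 to 0.468 and from 0.427 to 0.475.

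The AI of the members centered near equal shares and spread more widely than that of protein-coding genes. Their median AI was 0.518, 0.520 and 0.523, against 0.539, 0.539 and 0.537 for protein-coding genes. The SD over members was 0.146, 0.152 and 0.157, and over protein-coding genes 0.082, 0.088 and 0.080. Counting error alone, from the SNPs at least 300 bp apart, would give an SD of 0.047, 0.057 and 0.070 for members and of 0.029, 0.035 and 0.041 for protein-coding genes. Beyond counting error, the spread of the members was thus 0.138, 0.141 and 0.141, against 0.077, 0.081 and 0.068. Between 0.4 and 0.6 lay 66.4%, 62.7% and 58.4% of the members and 86.0%, 82.3% and 80.5% of protein-coding genes. No test between the classes was made, since genes of 1 library are not replicates.

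In the LOH range lay 123, 120 and 130 members, which is 10.4%, 10.2% and 11%. The Wilson intervals of these shares, at 95% confidence and for counting error only, as with all intervals here, were 8.80% to 12.3%, 8.57% to 12% and 9.35% to 12.9%. Among all autosomal genes the share in the LOH range was 3.26%, 3.38% and 3.06%, and among protein-coding genes it was 2.11%, 2.19% and 1.67%. Members over 0.75 numbered 78, 75 and 87 and members under 0.25 numbered 45, 45 and 43, so that the larger part stood on the B6 side. Among all autosomal genes 310, 331 and 416 were over 0.75 and 310, 313 and 167 under 0.25. Among protein-coding genes these numbers were 117, 125 and 186 over and 224, 229 and 84 under. The larger part thus stood on the B6 side in those sets as well in E15.10. In each library 25 to 29 members had an AI of 0.95 or more, as did 20 or 21 protein-coding genes of a set many times larger. With at least 500 counts in the library, the SD of AI was 0.119, 0.120 and 0.103 over members and 0.075, 0.078 and 0.057 over protein-coding genes. In these well covered members 6.01%, 4.96% and 4.94% were in the LOH range, against 1.80%, 1.77% and 0.665% of protein-coding genes.

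**Figure D1:**
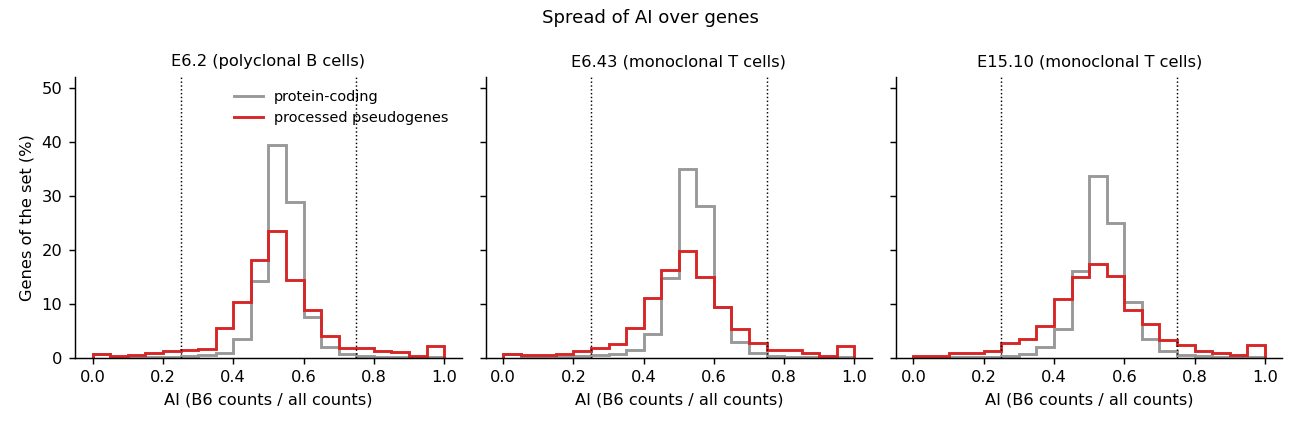
Share of genes (percent of the set, vertical axis) in bins of AI (B6 counts over all counts, horizontal axis) for 1181 processed pseudogenes and 16190 protein-coding genes, with 1 panel per library. The peak of the pseudogenes is lower and broader, and their outline stands above that of the coding genes beyond 0.75 in every panel. Dotted lines mark 0.25 and 0.75.

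Most members outside the limits were outside in more than 1 library. In all 3 libraries 69 members (5.84%) were in the LOH range, against 122 protein-coding genes (0.754%). Of these 69, 51 were over 0.75 and 17 under 0.25 in every library, and Gm10169, described below, changed side. In both E6 libraries alone there were 26 members, in E15.10 alone 42, in E6.43 alone 19 and in E6.2 alone 15. No library put 991 members in the LOH range, and 441 (37.3%) were balanced, between 0.4 and 0.6, in every library, against 66.1% of protein-coding genes.

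The members with the lowest mean AI lacked most B6 counts in every library. Gm13835, the copy of Psma3 shown above, had 2 B6 counts of 142, 4 of 117 and 3 of 127, and its AI was 0.0141 (interval 0.00249 to 0.0756), 0.0342 (0.00974 to 0.113) and 0.0236 (0.00539 to 0.0974). Its parent Psma3, identical over the aligned stretch, lay at the other side, with AI of 0.757, 0.773 and 0.787 from 1595, 1104 and 807 counts. The nearest measured protein-coding gene, Klf14, which encodes a zinc finger transcription factor, had 0.517, 0.597 and 0.498. Gm17051, on chromosome 14, for which no parent was found, had 3 B6 counts of 116, 1 of 74 and 2 of 56 at its single SNP, and 25 other places in the genome matched it by at least 95%. Gm5456, a copy of the esterase gene Esd on the same chromosome, had 61 B6 counts of 687, 32 of 422 and 22 of 255. Within Gm5456 the AI rose from 0.0421, 0 and 0 at the first SNP to 0.359, 0.378 and 0.444 at the last, 295 bases away. Gm6736, a copy of the aldose reductase gene Akr1b3, lies inside Nbas on the opposite strand and had 33 B6 counts of 244, 7 of 133 and 16 of 155, whereas its host Nbas had AI of 0.583, 0.553 and 0.622. Within Gm6736 the AI also differed between SNPs, with 0, 0 and 0 at the first SNP. At the SNP before the last it was 0.778, 0.4 and 0.357, from 18, 10 and 14 counts. At the last SNP it was 0.615, 0 and 0.357, from 13, 6 and 14 counts. Gm13137, a copy of Rplp1, had 14 B6 counts of 138, 13 of 101 and 0 of 50 and lies in a run of chromosome 4 described below. The 0 in E15.10 rests on 11 counts at spaced SNPs, which allows a B6 share of up to 27.3%. Upper limits for 0 counts are given here as 3 over the spaced counts, and they differ somewhat from Wilson limits.

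At the other end, 8 members had B6 counts alone in every library, and none had CAST counts alone in every library. The best covered of the 8 was Gm14058, with 597, 442 and 384 counts at 18 SNPs, all from B6. Its spaced SNP gave 54, 32 and 27 counts, and 0 CAST counts of these allow a CAST share of up to 5.56%, 9.38% and 11.1%. Rps12-ps10, its neighbor, had 574, 323 and 271 counts, all from B6, with upper limits of 1.44%, 2.65% and 3.16% for the CAST share. The protein-coding gene nearest to both, Terb2, which encodes a protein that holds meiotic telomeres at the nuclear envelope, had AI of 0.489, 0.461 and 0.551. Rps6-ps3, a copy of the gene of ribosomal protein S6, had 285, 218 and 115 counts, Gm5912, a copy of Gpkow, had 167, 94 and 158 at its single SNP, and Gm16433, a copy of the RNA helicase gene Ddx18, had 134, 104 and 109, again all from B6. The gene next to Gm16433, Itpr1, which encodes a calcium channel of the endoplasmic reticulum, had AI of 0.547, 0.521 and 0.533. The parent Ddx18 had 0.552, 0.554 and 0.651.

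A close copy elsewhere in the genome was common at both ends. Of the 51 members over 0.75 in every library, 40 (78.4%) had another copy of at least 98% identity, and of the 17 members under 0.25 in every library 13 (76.5%) did, against 45.7% of all members. A copy identical over the aligned stretch was found for 19 of the 51 and 11 of the 17. A single counted SNP carried the value in 8 and 5 of them, copies of ribosomal protein genes made up 17 and 6, against 36.1% of all members, and 0 and 4 lay in the stretches of neighboring genes that lost B6 counts. The 51 spread over 18 chromosomes and the 17 over 11.

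Across all members, the spread of AI was widest where the closest other copy was nearly identical over its best aligned stretch. Of 185 members with a copy of at least 99.5% identity, 53, 50 and 54 were in the LOH range, and the SD of their AI was 0.214, 0.219 and 0.227. Of 355 members with a closest copy of 98% to 99.5%, 28, 29 and 35 were in the range, with an SD of 0.135, 0.145 and 0.148. Of 375 members with a closest copy of 95% to 98%, 23, 21 and 19 were in the range, with an SD of 0.122, 0.121 and 0.126. Below that the numbers did not fall further, with 14, 16 and 17 of 224 members at 90% to 95% and 5, 4 and 5 of 40 members with no copy of 90%. The median counts in E6.2 were 352, 533, 581, 354.5 and 196.5 from the closest to the farthest group. In the groups at 99.5% and over and at 90% to 95%, 28.6% and 6.25% of members were in the LOH range of E6.2. These 2 groups also differed in the median of counted SNPs, 5 and 9, and in the median exon length, 711 and 562 bp. The part of depth, SNP number and length in the order of the groups was not tested. Among members with at least 500 counts in a library, 16.4%, 14.3% and 8.70% of those with a copy of at least 99.5% were in the LOH range, against 3.37%, 2.78% and 2.80% of those at 95% to 98%. The last of these contrasts rests on 2 of 23 members in E15.10. Members with 1 counted SNP, 65 in all, were also often in the range, with 14 in each library, whereas of 412 members with at least 10 SNPs 36 were in the range in each.

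**Figure D2:**
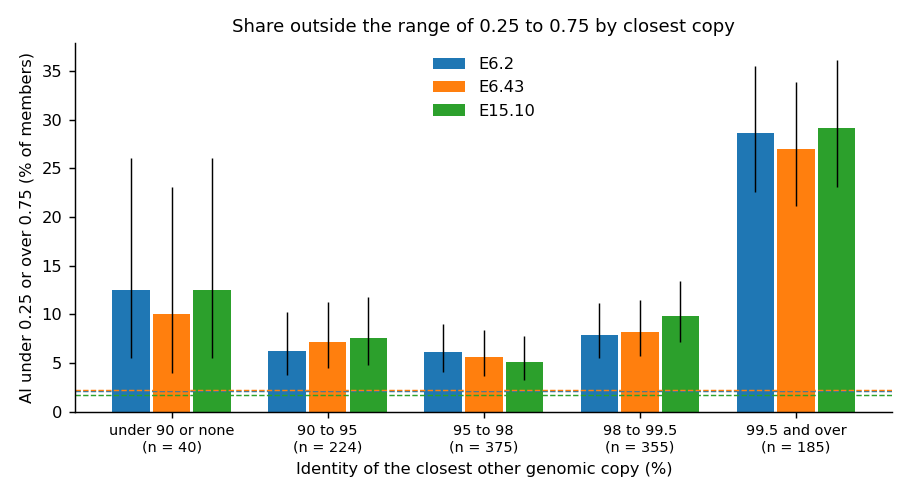
Share of members in the LOH range (percent, vertical axis) by the identity of the closest other copy in the genome (horizontal axis, 5 groups), with 1 bar per library, Wilson intervals at 95% confidence as thin lines, and the shares of protein-coding genes as dashed lines. The group at 99.5% and over, with 185 members, stands above the others in every library.

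The base that the parent carries moved with AI at single SNPs, by a small amount. At 2905 SNPs of members whose B6 base equals the aligned parent base, with at least 20 counts in every library, the median AI was 0.538, 0.541 and 0.549. At 2935 SNPs where the B6 base differs from the parent it was 0.50, 0.505 and 0.509. Within the same gene, 684 members had SNPs of both kinds, and AI was higher at the equal ones in 416 (60.8%), 413 (60.4%) and 400 (58.5%) of them. The median difference within a member was 0.0116, 0.0148 and 0.0132, with quartiles of -0.0180 and 0.0509 in E6.2. In 207 members it was positive in every library and in 90 negative in every library. Of the 10942 SNPs of members that lie in exons, 95.8% aligned to the coding part of the parent. Within a gene, the median range of AI over the SNPs of a gene was 0.131, 0.162 and 0.175 in 715 members with at least 3 SNPs of 20 counts and 0.179, 0.215 and 0.226 in 12601 protein-coding genes, which hold more SNPs with counts (a median of 9, against 6).

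The members were also grouped by the function of the parent. Copies of cytosolic ribosomal protein genes, 426 members, had a median AI of 0.517 in E6.2 and 0.516 in E6.43, and 37, 38 and 45 of them were in the LOH range. Copies of glycolytic enzyme genes, 52 members, gave 3, 4 and 1. Copies of genes of RNA binding proteins, 40 members, gave 3, 6 and 6, and copies of genes of chromatin and nucleolar proteins, 33 members, gave 1, 1 and 2. Copies of proteasome and ubiquitin genes, 26 members, gave 3, 3 and 4, copies of respiratory chain genes, 24 members, gave 4, 3 and 0, and copies of translation factor genes, 24 members, gave 1, 3 and 3. Copies of protein folding genes, 26 members, gave 2, 2 and 2, and copies of cytoskeleton genes, 14 members, gave 1, 1 and 0. Members whose parent was in none of these families, 500 in number, gave 65, 56 and 63. The 14 members for which no parent was found gave 3, 3 and 4. Against the shares over all members given above, no family was tested.

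Single parents with many copies showed how even a large family can be. Rpl21, which encodes a protein of the large ribosomal subunit, had 40 members, none of them in the LOH range in any library, and the SD of their AI was 0.068, 0.068 and 0.065. Their AI ran from 0.428 to 0.684 in E6.2, from 0.408 to 0.688 in E6.43 and from 0.409 to 0.665 in E15.10. Gapdh had 42 members with medians of 0.521, 0.533 and 0.511, and 2, 2 and 0 of them were in the LOH range. Rpl7a had 38 members, of which 1, 1 and 2 were in the range, and Rps2, of the small ribosomal subunit, had 35, of which 4, 4 and 3 were.

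Some parent genes of large families had AI far from that of their copies, and others had AI near it, and the parents described here were chosen after their values were seen. Gapdh itself had AI of 0.0996, 0.0964 and 0.182 from 803, 529 and 455 counts at 4 SNPs. Rpl21 had 0.219, 0.209 and 0.218 from 5519, 3749 and 2593 counts at 25 SNPs, so that the parent lay below the lowest of its 40 copies in every library. Hmgb1, which encodes an abundant chromatin protein and had 20 members with medians of 0.524, 0.523 and 0.553, had AI of 0.169, 0.143 and 0.259 from 694, 447 and 433 counts. Rpl19 lay at the other side with 0.801, 0.761 and 0.675, over 7 members with medians of 0.476, 0.442 and 0.474. Rpl7a, in contrast, had 0.463, 0.439 and 0.449 from 8926, 6352 and 5185 counts, near its copies, and Rps2 had 0.472, 0.485 and 0.508. Rpl23a, Rpl27a and Rpl15 lay between 0.425 and 0.553 in every library. Of 34 measured parents with at least 5 members, 4, 5 and 4 were in the LOH range (11.8%, 14.7% and 11.8%). Of 83 parents with 2 to 4 members, 5, 7 and 3 were in the range, and of 295 with 1 member 9, 9 and 8 were (3.05%, 3.05% and 2.71%). Over 888 members with a measured parent, which share parents and libraries, Pearson's r between the AI of the member and of the parent was 0.019, 0.027 and -0.003.

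**Figure D3:**
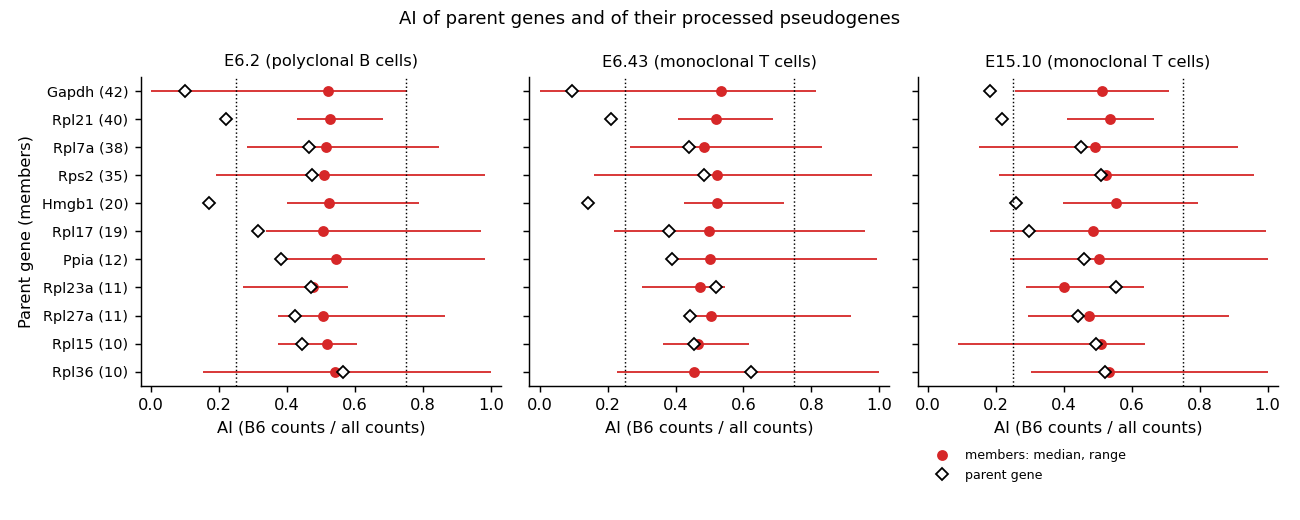
AI (B6 counts over all counts, axis from 0 to 1) of measured parent genes and of the processed pseudogenes copied from them, for measured parents with at least 10 members, with 1 panel per library. Diamonds are parent genes, dots the median over members and lines their range, and the number of members stands beside each name. The copies of Gapdh, Rpl21 and Hmgb1 center near 0.5 whereas the parent genes lie below 0.26, and the other 8 parents lie between 0.296 and 0.623.

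The libraries agreed in the AI of members, and most closely for the pair from the same donor, which are also the deeper libraries. Over 1181 members, Pearson's r was 0.815 between E6.43 and E6.2, 0.687 between E15.10 and E6.2 and 0.647 between E15.10 and E6.43, and Spearman's rho was 0.657, 0.559 and 0.529. Over protein-coding genes r was 0.745, 0.438 and 0.407. These points share the genome, the capture probes and their SNPs, and the pairs share libraries, so the values are descriptions. Since r grows with spread, members within 0.25 to 0.75 in every library were also taken alone, and r was then 0.514, 0.403 and 0.382 over 991 members and 0.468, 0.347 and 0.306 over 15674 protein-coding genes. By the closest copy, r between E6.43 and E6.2 was 0.582 over 266 members with no copy of 95%, 0.756 at 95% to 98%, 0.856 at 98% to 99.5% and 0.938 at 99.5% and over. For E15.10 and E6.2 these values were 0.482, 0.573, 0.707 and 0.836, and for E15.10 and E6.43 they were 0.407, 0.552, 0.660 and 0.817.

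**Figure D4:**
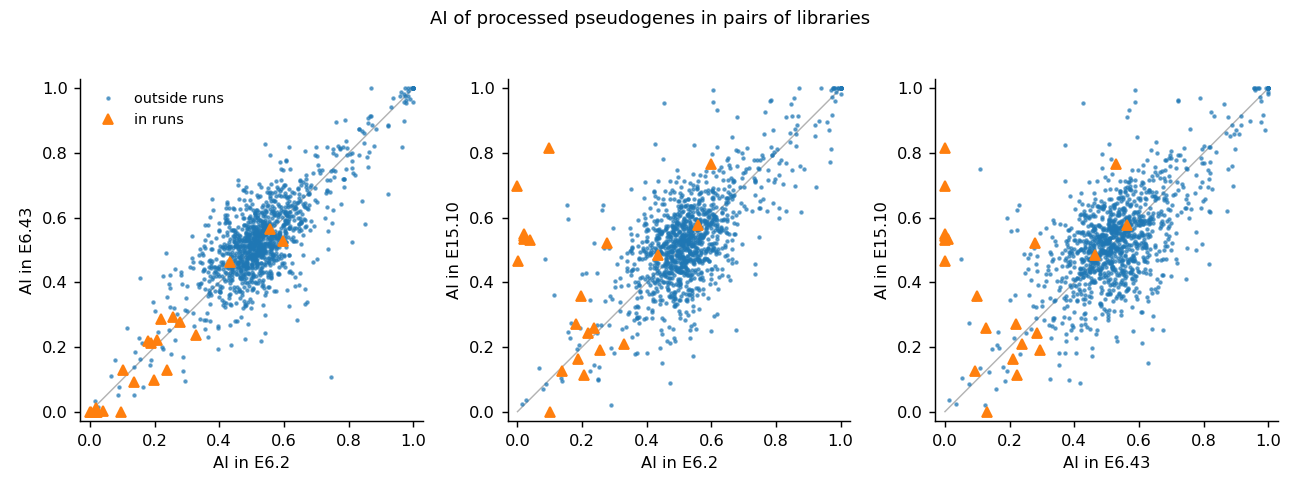
AI of each member (B6 counts over all counts) in 1 library against another, with 1 panel for each pair of libraries and 1 point per processed pseudogene. Triangles are the 21 members in runs of neighboring genes, of which those of chromosome 7 lie near 0 in the E6 libraries and between 0.467 and 0.815 in E15.10, and the other points gather along the diagonal.

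Differences between libraries remained, and were larger against E15.10. AI differed by at least 0.2 in 46 members between E6.43 and E6.2 (3.89%, against 1.15% of all autosomal genes), in 98 between E15.10 and E6.2 (8.30%, against 3.3%) and in 112 between E15.10 and E6.43 (9.48%, against 3.99%). The pairs with E15.10 share that library and differ in depth, with E15.10 the shallowest. The SD of the difference over members was 0.091, 0.120 and 0.130, where counting error alone would give 0.074, 0.084 and 0.090. Over all autosomal genes it was 0.065, 0.090 and 0.097, where counting error alone would give 0.049, 0.055 and 0.059. The shares above were not matched for counts, which were lower in members.

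By a two-sided Fisher's exact test on the spaced SNPs, with Benjamini-Hochberg adjustment over 19026 autosomal genes, few of these differences were called. At an adjusted p under 0.05 there were 7 members between E6.43 and E6.2 (0.593%, against 0.815% of all autosomal genes), 47 between E15.10 and E6.2 (3.98%, against 5.06%) and 49 between E15.10 and E6.43 (4.15%, against 4.96%). On these spaced SNPs the shares of members called did not exceed those of all genes, with fewer spaced counts per member than the medians of 397, 270 and 216 in protein-coding genes. On counts summed over all SNPs the shares of members were the larger ones, as given in the closing sections. Among the calls, AI was higher in E15.10 in 25 of 47 and in 27 of 49, against 610 of 962 and 576 of 943 over all autosomal genes. A difference of at least 0.2 was seen in 3, 24 and 30 of the member calls, which was not counted over all genes. With the counts shrunk by the overdispersion between libraries, 0, 14 and 13 members were called. These are 0%, 1.19% and 1.10% of members, against 0%, 1.40% and 1.25% of all autosomal genes. Of the 14 and of the 13 members, 7 each lie in the chromosome 7 stretch.

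That stretch held 7 members. Between 29697646 and 35802648 of chromosome 7 (GRCm38), 127 genes with counts in E6.2, and 128 with counts in E6.43, formed a run without most B6 counts, and of 10 listed processed pseudogenes in it 7 are members. The AI of these 7 was 0.0971 or less in E6.2, 0.0101 or less in E6.43 and 0.467 to 0.815 in E15.10. Rps12-ps5, which lies inside Wdr62 on the opposite strand, had 30 B6 counts of 771, 1 of 631 and 457 of 859, and Wdr62 had AI of 0.0169, 0.00122 and 0.525. The AI of Rps12-ps5 was thus 0.0389, 0.00159 and 0.532, and E15.10 differed from E6.2 (adjusted p = 3.809e-23, Fisher's exact test) and from E6.43 (adjusted p = 1.916e-30, Fisher's exact test). Gm12774, a copy of Mrpl27, a mitochondrial ribosomal protein gene, had 6 B6 counts of 321, 0 of 219 and 108 of 197. Gm17199, a copy of Gapdh, had 0 of 195, 0 of 102 and 99 of 142. Gm10169, a copy of the cytokine gene Mif whose exon overlaps another gene, had 10 of 103, 0 of 56 and 132 of 162, which put it under 0.25 in the E6 libraries and over 0.75 in E15.10. The coding genes nearest to Gm12774, Gm17199 and Gm10169 had AI of 0.0256 or less in E6.2, 0.00298 or less in E6.43 and 0.468 to 0.583 in E15.10. Runs were defined by the AI of their genes, so these values describe the stretch and test nothing. The methods of the study report a large deletion shared by all E6 samples and give no position for it. Whether that deletion is this stretch was not tested. A run on chromosome 4, from 146943906 to 147737666 in E15.10, held Gm13137 at its far end, and 21 members in all lay in a run of at least 1 library. The 21 had a median AI of 0.188, 0.129 and 0.467.

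Outside the runs, called differences stood in single members, and the few described here were chosen after their values were seen and are not ranked by size. Gm4294 on chromosome 12, a copy of Rpl15 with another copy identical over the aligned stretch, was lowest in E15.10, with 0.473, 0.419 and 0.0877 from 823, 621 and 422 counts (adjusted p = 2.205e-08 for E15.10 against E6.2, Fisher's exact test). Gm9386 on chromosome 17, a copy of the nuclear import gene Nutf2, was highest there, with 0.606, 0.587 and 0.957. Gm6166, a copy of the fatty acid binding protein gene Fabp5, had 0.452, 0.426 and 0.956, and its call was lost with the overdispersion (adjusted p = 0.6493 for E15.10 against E6.2, Fisher's exact test). Gm10481, a copy of Gapdh with another copy identical over the aligned stretch, had 0.734, 0.634 and 0.425. Between the E6 libraries the 7 members called were Gm8894, Gm12858, Gm10180, Gm14388, Gm5670, Gm12403 and Rpl32-ps. Of these Gm12858, a copy of the transcription factor gene Gabpb1, had AI of 0.437, 0.206 and 0.559, so that E6.43 alone was in the LOH range.

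Gm12274, a copy of Edf1 inside Specc1, had the widest range of the members outside the runs and no call. It had 115 B6 counts of 154, 10 of 93 and 69 of 92, and AI of 0.747 (interval 0.502 to 0.896), 0.108 (0.0139 to 0.508) and 0.75 (0.427 to 0.924). The 13 SNPs lie 313 bases apart at most and left 16, 6 and 9 spaced counts, and the adjusted p was 0.2219 for E6.43 against E6.2 and 0.09655 for E15.10 against E6.43 by Fisher's exact test. The difference was not detectable at this depth, and Specc1 had 0.536, 0.540 and 0.465.

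The best covered members lay near equal shares, and their intervals were the narrowest. Gm8055, a copy of Gapdh with 44 other places of at least 95% identity, had 3490 B6 counts of 6919, 2592 of 5125 and 1998 of 3782. Its AI was 0.504 (interval 0.472 to 0.537), 0.506 (0.468 to 0.543) and 0.528 (0.485 to 0.571), with 0.557, 0.543 and 0.525 at the spaced SNPs, and the intervals overlap. Gm10313, another copy of Gapdh, had 0.491, 0.517 and 0.515, and its intervals overlap as well. Gm11658, also from Gapdh, had 0.577, 0.590 and 0.639 from 4961, 3623 and 3772 counts. Gm5507, on chromosome 18 and from Gapdh as well, had 0.546, 0.548 and 0.456 from 6792, 4524 and 2738 counts, and E15.10 was called lower than E6.2 (adjusted p = 0.02072, Fisher's exact test) but not with the overdispersion (adjusted p = 0.5804).

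The best covered member of each other family stayed within the LOH limits in every library. Gm7418, the copy of Rpl7a, had AI of 0.515, 0.459 and 0.460. Gm12799, a copy of the splicing factor gene Rbm10 on the X chromosome, had 0.659, 0.711 and 0.674 from summed counts and 0.515, 0.608 and 0.524 at spaced SNPs, so that the value depended on which SNPs were counted. Gm14162, a copy of Hmgb1, had 0.441, 0.493 and 0.491, and Gm5558, a copy of Ppia, which encodes the folding enzyme cyclophilin A, had 0.567, 0.473 and 0.519. Gm5356, a copy of the proteasome gene Psmb3, had 0.543, 0.549 and 0.554. Ndufa11b, a copy of Ndufa11 of respiratory complex I, had 0.590, 0.633 and 0.685. Eif5al3-ps, a copy of the translation factor gene Eif5a, had 0.581, 0.540 and 0.682. Of these Tubb4b-ps1, a copy of a beta tubulin gene, with 0.526, 0.550 and 0.612, was the only one called, between E15.10 and E6.43 (adjusted p = 0.04622, Fisher's exact test), and the call was lost with the overdispersion (adjusted p = 0.6809, Fisher's exact test).

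Outside the runs, the AI of a member and of the gene next to it were nearly uncorrelated. The median distance to the nearest measured protein-coding gene was 11445 bp, and over 1160 members outside runs r between the AI of the member and of that gene was 0.029, 0.036 and 0.033. With the 21 members in runs, r was 0.153, 0.166 and 0.029 over 1181. Of the 68 members outside the LOH limits on the same side in every library, the nearest coding gene was balanced in every library in 38. It was in the LOH range in at least 1 library in 10. Of all protein-coding genes, 66.1% were balanced in every library and 3.19% were in the LOH range in at least 1. Of the 68 members, 4 lie in runs. By chromosome, the members were most numerous on chromosome 4 with 168, chromosome 2 with 160 and chromosome 11 with 140. The SD of their AI was widest in both E6 libraries on chromosome 7, at 0.222 and 0.234, where E15.10 had 0.169.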

How the data were processed

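Genomic DNA of sorted cells was captured with the Agilent SureSelect Mouse All ExonV6 kit from DNA sheared to 180 to 280 bp, and both ends were read over 150 bp. The authors aligned the reads, gave them to the B6 or CAST allele with the ASEReadCounter* pipeline, and deposited raw allelic counts per SNP and per gene for each library. The submitters' processing notes name cutadapt 1.14, Trim Galore, STAR 2.5.4a, SAMtools, GATK and GRCm38. For RNA reads the methods keep uniquely aligned reads, and settings for exome reads are not given in the sources used here. Loss of reads that align in several places would lower counts at close copies, and alignment in favor of the reference would raise AI. A series table of the authors' p-values and calls was not used, and 0 columns of no sample were read.

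AI was computed as B6 over all counts from gene sums, which equaled the sums over SNPs. Biotypes and exons came from the GRCm38 annotation, in which 29309 of 30212 listed genes were found. Parents (at least 100 aligned bases) and other copies (at least 85% identity over at least 100 aligned bases, with no minimum share of the member covered) were searched with blastn 2.17.0. Runs were at least 9 neighboring autosomal genes with a running median AI under 0.25 or over 0.75. Between libraries, Fisher's exact test (two-sided) was applied to SNPs at least 300 bp apart with Benjamini-Hochberg adjustment (Python 3.11.15, scipy 1.17.1). Tested on simulated data of 19026 genes, the test found 73.1%, 65.7% and 59.7% of the genes changed by 0.2 in the comparisons E6.43 with E6.2, E15.10 with E6.2 and E15.10 with E6.43. The simulated counts held binomial error alone, whereas the overdispersion between the libraries of these pairs was 1.79, 2.08 and 2.02. They had the depth of all autosomal genes, with medians of 356, 241 and 186 spaced counts by library, more than members had. The shares found therefore do not hold for members. Members named by rule were the 5 with the lowest and the 5 with the highest mean AI, the 6 with the largest range, the 4 with the most counts, the 3 best covered balanced ones, and the best covered of each family with at least 5 members. A member named by this rule and a called one are not reported here. The members and lists were chosen with earlier results of these data known. Alternatives covered the count minimum, SNP number, runs, overlaps, the way AI was summed, and the limits.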

Additional observations from a re-analysis of the deposited data

How the results depend on the processing

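Of 156 alternative values over the shares, spreads, correlations and calls of members, 118 stayed within the limits set for a change (a Wilson interval for shares, 1.5 times for spreads and call counts, 0.1 for correlations), and no SD or Pearson's r was past them. The share of members in the LOH range, given for E6.2, E6.43 and E15.10, moved with the count minimum. With at least 200 counts it was 5.81%, 5.81% and 5.99%, and a minimum of 20 counts gave 12.3% for E6.43, and 14.2% for E15.10. Among protein-coding genes the share was 1.71%, 1.77% and 1.05% with at least 200 counts. With at least 20 counts it was 2.68% of protein-coding genes for E6.43 and 2.29% for E15.10. With limits of 0.1 and 0.9 the share of members was 3.64%, 3.90% and 3.81%, and with 0.4 and 0.6 it was 33.6%, 37.3% and 41.6%. As the median over SNPs it was 13.3% in E15.10. The share that differed by at least 0.2, given for E6.43 with E6.2, E15.10 with E6.2 and E15.10 with E6.43, was 6.18%, 12.4% and 14.0% with at least 20 counts and 1.45%, 4.54% and 5.08% with at least 200. With at least 90 counts it was 2.48% and 6.68% in the first pairs. As the median over SNPs it was 5.43%, 10.9% and 11.3%, and with spaced SNPs 10.1% and 11.7% in the pairs with E15.10. A difference of 0.1 gave 22.1%, 33.1% and 36.7%, and one of 0.3 gave 0.423%, 2.37% and 2.88%. The share called by Fisher's exact test was 25.1%, 30.3% and 30.1% on counts summed over all SNPs, where read pairs are counted several times. Over all autosomal genes it was then 15.3%, 20.5% and 20.3%, lower than in members. With overdispersion it was 0%, 1.19% and 1.10%, against 0%, 1.40% and 1.25% of all autosomal genes. With at least 200 counts it was 5.99% for E15.10 with E6.2, and the share over all genes was not taken there. For the 0% between E6.43 and E6.2, the members with an unadjusted p under 0.05 numbered 39 under overdispersion and 139 on spaced SNPs. Over all autosomal genes these numbers were 778 and 2566. The cause of these changes was not tested. A higher minimum left fewer members, with 551 at a minimum of 200 counts. No paired analysis was possible because each animal gave 1 library. Precision is limited by depth, since a member had a median of 63 spaced counts in E15.10.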

Other observations

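Pseudogenes outside the set described above gave the following values, with the same minimum of 50 counts and in the order E6.2, E6.43 and E15.10. X-linked processed pseudogenes, 165 in number, had a median AI of 0.501, 0.510 and 0.493 and an SD of 0.137, 0.146 and 0.150, and 12, 13 and 15 of them (7.27%, 7.88% and 9.09%) were in the LOH range. X-linked protein-coding genes, 564 in number, had 4.43%, 3.90% and 3.72% in the range. Processed pseudogenes annotated as transcribed, 58 in number, had 4 in the range in each library (6.90%). Unprocessed pseudogenes, which arise by duplication of DNA and keep introns, numbered 198, and 31, 32 and 36 of them (15.7%, 16.2% and 18.2%) were in the range, with an SD of AI of 0.180, 0.183 and 0.194. No test between these classes was made.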
